A study of Mus musculus with 18 samples.

Results

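The EphB receptors and their ephrin-B ligands are a family of contact-dependent guidance genes, and all 8 members listed for mouse (Ephb1, Ephb2, Ephb3, Ephb4, Ephb6, Efnb1, Efnb2 and Efnb3) were found by symbol among the 23228 genes of the expression table. RNA samples from a pair of ICR tissues were compared. The first was made of GFP-positive cells sorted from dissociated E12.5 neural tubes that carried the 2.3Ptf1a-GFP transgene, where GFP is driven by a beta-globin basal promoter and the 2.3 kb autoregulatory enhancer of Ptf1a, a transcription factor gene. The second was whole E15.5 pancreas with the genotype given as WT, which was not sorted. Tissue, stage, sorting and RNA extraction therefore all differed between the same samples and cannot be told apart. The labels name 2 libraries for each sample, but 1 value per gene and sample was deposited, so there is no replicate check and no test. The values are FPKM, fragments scaled by transcript length and by the number of mapped fragments, a scale on which levels of different genes can be set side by side.

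EphB receptors are transmembrane tyrosine kinases, and ephrin-B ligands are themselves transmembrane proteins with a cytoplasmic tail, so contact between cells can signal forward into the receptor cell and in reverse into the ligand cell. In the nervous system they are known for axon guidance, boundary formation and synapse assembly. In vessels, ephrin-B2 marks arterial and EphB4 venous endothelium, and in epithelia EphB signalling takes part in cell positioning and tubule shape.

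All 3 ligands and 4 of the 5 receptors had higher FPKM in the sorted neural tube cells, and Ephb4 was the single member with a higher value in pancreas. Differences are given as log2 of FPKM + 1, neural tube minus pancreas, and understate how far weakly detected genes differ. Calls follow a rule of size: a difference of 2 or more on this scale, equal to 4 times, and a level of 5 FPKM or above in whichever tissue is higher. Of the 7 members that reached 5 FPKM in a tissue, the rule called Ephb2, Efnb2 and Efnb3, 3 in all, higher in neural tube and 0 higher in pancreas. With a pseudocount of 5 FPKM in place of 1, Ephb2 and Efnb2 missed the rule, at 1.91 and 1.79, and 1 call was left. Over the 10744 genes at that level, 10.3% were called higher in neural tube and 11.9% higher in pancreas. At a lower bar of 2 times, 5 members passed toward neural tube, as did 23.2% of genes, and 1 member, Ephb4, passed toward pancreas, as did 25.0% of genes. The median difference of the 7 members at 5 FPKM was 1.98, against -0.0029 for those 10744 genes, and that of all 8 members was 1.78. The direction of each of the 8 differences was the same under the 5 rescalings of the samples that were tried. These shift the log2 ratio by -0.066 to 0.63, less than the smallest member difference of 0.76 (Ephb3), so they could not turn any direction. The other pseudocounts, 0.1 and 5 FPKM, change the size of a difference but cannot change its direction.

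**Figure D1:**
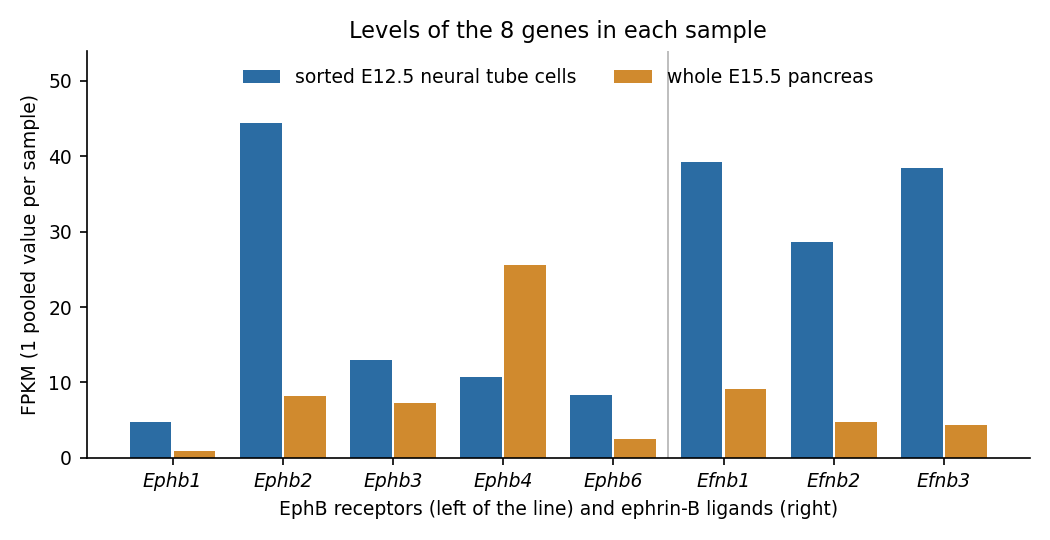
FPKM of each EphB receptor and ephrin-B ligand (horizontal axis) in sorted E12.5 neural tube cells (left bar) and whole E15.5 pancreas (right bar), with 1 pooled value per bar and no error bar. The neural tube bar is the higher one for every gene but Ephb4, at 10.7 FPKM in neural tube against 25.6 in pancreas.

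The stretches just before the transcription start are shown for Efnb1 and Efnb2, ligands with higher values in neural tube, and for Ephb4, the receptor with the opposite difference. Each of the 3 windows lies outside the GENCODE M1 model of its own gene. Sequences are from RefSeq (GRCm38.p6), whose promoter table matched 7 of the 8 members, all but Efnb3. Each run is the 250 bases before the start, 5′ to 3′ on the gene's strand, and each was found exactly once in NCBIM37, the build called mm9, at the coordinates given. Capitals mark CANNTG, the E-box core recognised by basic helix-loop-helix factors such as Ptf1a, and TGGGAA, the core recognised by Rbpj and Rbpjl, both searched on both strands. CANNTG can share its last TG with TGGGAA, and no such overlap occurred in these windows.
Efnb1 (chrX:96331150-96331399, plus strand): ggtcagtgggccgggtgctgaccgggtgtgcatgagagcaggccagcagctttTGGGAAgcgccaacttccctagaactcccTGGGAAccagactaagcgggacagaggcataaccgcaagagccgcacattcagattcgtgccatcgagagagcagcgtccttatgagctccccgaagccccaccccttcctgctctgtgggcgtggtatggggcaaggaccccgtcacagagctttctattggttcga
Efnb2 (chr8:8661243-8661492, minus strand): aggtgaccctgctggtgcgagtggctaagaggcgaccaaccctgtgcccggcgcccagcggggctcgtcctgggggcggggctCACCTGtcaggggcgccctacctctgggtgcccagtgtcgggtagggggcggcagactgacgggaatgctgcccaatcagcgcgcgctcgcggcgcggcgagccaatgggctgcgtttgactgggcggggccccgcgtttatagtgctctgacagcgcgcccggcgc
Ephb4 (chr5:137791087-137791336, plus strand): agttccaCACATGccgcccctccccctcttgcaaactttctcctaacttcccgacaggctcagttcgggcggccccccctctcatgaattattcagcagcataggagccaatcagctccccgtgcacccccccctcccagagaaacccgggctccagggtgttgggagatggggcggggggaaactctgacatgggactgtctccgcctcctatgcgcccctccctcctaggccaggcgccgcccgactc

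With the base before the start counted as -1, Efnb1 held TGGGAA at 2 places, with first bases at -197 and -168, and no CANNTG. Efnb2 held 1 CANNTG with its first base at -167, and Ephb4 held 1 with its first base at -243. Of the 7 windows, 5 held CANNTG, 1 held TGGGAA and 0 held both. The Ephb3 and Ephb6 windows, not printed, run partly into the GENCODE M1 models of their own genes. Among 32851 RefSeq promoter windows of the same length 66.2% held CANNTG, 21.6% held TGGGAA and 14.8% held both. CANNTG stood at 2 or more places in 31.8% of them, as in the Ephb3 window. TGGGAA did so in 2.77%, as in the Efnb1 window. The 7 windows had 10 to 27 CpG dinucleotides, against a median of 6 over all windows. These matches describe letters in a short window and do not show binding.

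Efnb3 (chromosome 11, 69367594 to 69373707, minus strand, NCBIM37) encodes ephrin-B3, known as a midline barrier to corticospinal axons in the spinal cord. It had 38.4 FPKM in neural tube against 4.30 in pancreas, 8.92 times as much and a difference of 2.89. Only 5.44% of the 10744 genes differed further in that direction.

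Efnb2 (chromosome 8, 8617434 to 8661239, minus strand) encodes ephrin-B2, used both by arterial endothelium and by neural cells. It had 28.6 FPKM in neural tube against 4.75 in pancreas, a ratio of 6.03 and a difference of 2.37. Efnb1 (chromosome X, 96331469 to 96344330, plus strand) encodes ephrin-B1, known for boundary formation, and its loss in humans causes craniofrontonasal syndrome. It had 39.2 FPKM in neural tube against 9.19 in pancreas, a ratio of 4.27. Its difference of 1.98 lay just below the rule, since adding 1 FPKM to both values brings the ratio to 3.95, and it passed the rule with a pseudocount of 0.1 FPKM and under 3 of the rescalings.

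The receptors covered a wider range. Ephb2 (chromosome 4, 136203454 to 136391903, minus strand) encodes a receptor for ephrin-Bs in commissural and forebrain axons and at excitatory synapses. It had 44.4 FPKM in neural tube against 8.16 in pancreas, a ratio of 5.44 and a difference of 2.31. In the neural tube sample it lay above 86.3% of the 12258 genes with a level of 1 FPKM upward there.

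Ephb1 (chromosome 9, 101824458 to 102257023, minus strand) encodes the receptor that turns ipsilateral retinal axons away from the optic chiasm. It had the lowest value of the members in both samples, at 4.72 FPKM in neural tube against 0.914 in pancreas. Its ratio of 5.17 is close to that of Ephb2, but at these levels the difference was 1.58 and the 5 FPKM minimum was not reached. Exons of Ephb1 and of the opposite-strand gene model Gm17708 share up to 152 bases, and whether strand was used in counting is not given in the sources used here.

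Ephb6 (chromosome 6, 41555481 to 41570508, plus strand) encodes a receptor whose kinase domain is catalytically inactive, and which signals through partner receptors. It had 8.34 FPKM in neural tube against 2.44 in pancreas, a ratio of 3.42 and a difference of 1.44. Ephb3 (chromosome 16, 21204828 to 21223378, plus strand), which acts together with Ephb2 in forebrain commissures and in intestinal epithelium, had 12.9 FPKM in neural tube against 7.22 in pancreas. With a difference of 0.76 it was the 1 member called similar, meaning 5 FPKM or more in both samples and within 2 times, as were 68.4% of the 7037 genes that reached 5 FPKM in each tissue.

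Ephb4 (chromosome 5, 137791337 to 137819897, plus strand) encodes the venous receptor for ephrin-B2. It had 10.7 FPKM in neural tube against 25.6 in pancreas, 2.39 times as much in pancreas. The difference of -1.19 was smaller than the rule asks for and stayed between -1.25 and -0.60 over both other pseudocounts and the 5 rescalings. Exons of Ephb4 share up to 33 bases with Zan on the opposite strand, a gene at 0.0285 FPKM in neural tube against 0.105 in pancreas.

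**Figure D2:**
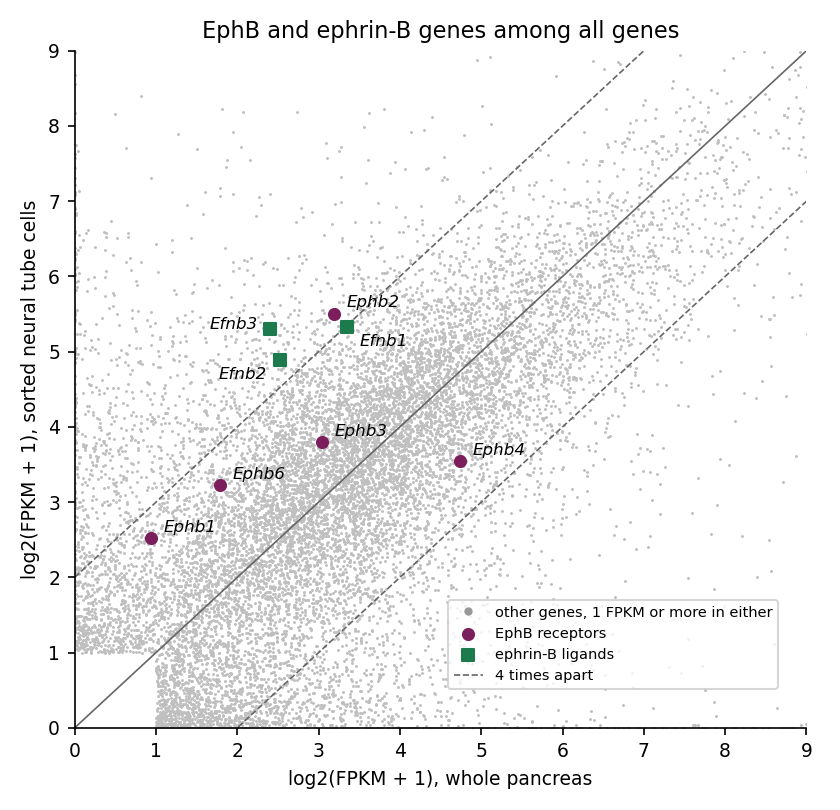
Each point is a gene, with log2(FPKM + 1) in whole pancreas on the horizontal axis and in sorted neural tube cells on the vertical axis, for the 14303 genes that reach 1 FPKM in a tissue, of which 231 lie beyond the axis limit of 9. Ephb2, Efnb2 and Efnb3 lie above the upper dashed line of a 4-times difference, Efnb1, at 1.98, lies just under it, and Ephb4 is the 1 member below the solid line of equal levels.

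The order of levels differed between the samples. In neural tube, Ephb2, Efnb1, Efnb3 and Efnb2 came first, each within 2 times of the next. A gap of 2.21 times separated Efnb2 from Ephb3, after which Ephb4, Ephb6 and Ephb1 followed, again each within 2 times of the next. In pancreas, Ephb4 came first and stood 2.79 times above Efnb1, the next gene. Efnb1, Ephb2, Ephb3, Efnb2, Efnb3 and Ephb6 followed without a gap over 2 times, and Ephb6 stood 2.67 times above Ephb1. Without replicates, neighbours within 2 times cannot be put in a firm order. Ephb4 lay above 49.1% of the genes with a level of 1 FPKM upward in neural tube, and above 77.5% of the 13026 such genes in pancreas.

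Shares within a sample do not depend on how the samples are scaled. Ephb2 made up 54.8% of the summed EphB FPKM in neural tube and 18.4% in pancreas. Ephb4 made up 13.2% in neural tube and 57.8% in pancreas. The leading receptor therefore differed between the samples, and the ratio of Ephb2 to Ephb4 was 4.15 in neural tube and 0.318 in pancreas. Ephb3 held a near-equal share, 15.9% in neural tube and 16.3% in pancreas.

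Efnb1 held 36.9% of the summed ephrin-B FPKM in neural tube and 50.4% in pancreas. Efnb2 held 26.9% in neural tube and 26.0% in pancreas, and Efnb3 held 36.1% in neural tube and 23.6% in pancreas. The 3 ligands summed to 106 FPKM in neural tube against 18.2 in pancreas. The 5 receptors summed to 81.1 FPKM in neural tube against 44.4 in pancreas. Summed ligand over summed receptor FPKM was thus 1.31 in neural tube and 0.411 in pancreas.

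**Figure D3:**
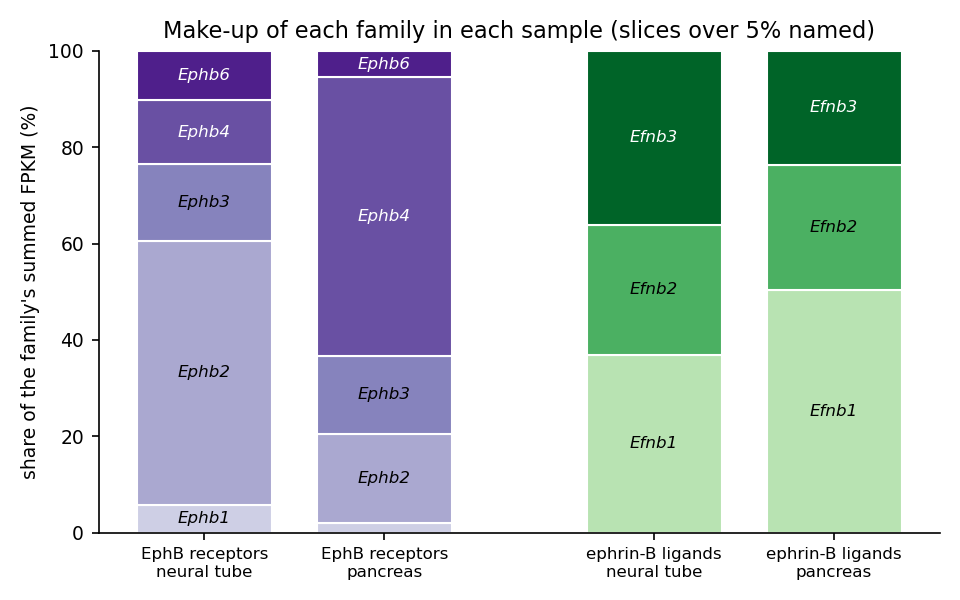
Share of each gene (vertical axis, %) in the summed FPKM of the EphB receptors and of the ephrin-B ligands, for neural tube and for pancreas. Ephb2 takes 54.8% of the receptor sum in neural tube and Ephb4 takes 57.8% in pancreas, while Efnb1 and Efnb3 take near-equal shares of the ligand sum in neural tube, 36.9% and 36.1%.

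The A class of the same family gives a comparison. Of the 9 EphA receptors, 8 had the higher value in neural tube, but only 4 reached 5 FPKM in a tissue and could be called. Of these 4, 0 were called higher in neural tube and 1, Epha1, higher in pancreas. Of the 10744 genes at that level, 10.3% and 11.9% were called in those directions. Epha1, which is known from epithelia, had 0.363 FPKM in neural tube against 7.95 in pancreas. The highest EphA receptors were Epha3, at 23.2 FPKM in neural tube against 9.09 in pancreas, and Epha4, a guidance receptor that also binds ephrin-Bs, at 12.9 FPKM in neural tube against 3.93 in pancreas. Epha5 and Epha10 differed by 2.03 and 2.02 but stayed under 5 FPKM, at 3.44 and 3.19 FPKM in neural tube and at 0.0906 and 0.0290 in pancreas. Epha7 was nearly level, at 6.43 FPKM in neural tube against 5.39 in pancreas. The EphA receptors summed to 54.8 FPKM in neural tube against 29.0 in pancreas, a ratio of 1.89, close to the 1.83 of the EphB receptors.

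Of the 5 ephrin-A ligands, which are held in the membrane by a lipid anchor, 2 were called higher in neural tube and 1 higher in pancreas. Efna2 was at 24.6 FPKM in neural tube against 3.17 in pancreas. Efna3 was at 15.1 FPKM in neural tube against 1.80 in pancreas. Efna1, a ligand of epithelial and endothelial cells, was at 1.46 FPKM in neural tube against 11.6 in pancreas. Efna4 was called similar, at 10.2 FPKM in neural tube against 6.17 in pancreas. Efna5 was at 7.81 FPKM in neural tube against 2.69 in pancreas and was not called. Thus 4 of the 5 ephrin-A ligands and all 3 ephrin-B ligands had the higher value in neural tube. Summed ligand over summed receptor FPKM for the A class was 1.08 in neural tube and 0.877 in pancreas.

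Calls were also counted in the signalling and cleavage lists. They are to be read beside the 10744 genes at 5 FPKM in a tissue, of which 10.3% were called higher in neural tube and 11.9% in pancreas. That level was reached by all 31 measured forward signalling genes, 14 of 15 reverse signalling genes and 11 of 14 cleavage genes. With a pseudocount of 5 FPKM, 0 genes of these lists and the A class were called toward neural tube and 1 toward pancreas. Of 31 measured genes of EphB forward signalling 4 were called higher in neural tube and 1 higher in pancreas, with a median difference of 0.36. Vav2, which takes part in Eph endocytosis, was at 21.0 FPKM in neural tube against 2.87 in pancreas. Kalrn, the exchange factor kalirin of EphB-dependent spine growth, was at 10.7 FPKM in neural tube against 1.31 in pancreas. The other calls toward neural tube, singled out after their values were seen, were Itsn1, an exchange factor for Cdc42, at 40.2 FPKM in neural tube against 7.35 in pancreas, and the kinase gene Pak1, at 41.2 FPKM in neural tube against 7.73 in pancreas. Grb7, an adaptor that binds EphB1, was at 0.633 FPKM in neural tube against 17.8 in pancreas. The genes of this list with the highest mean, Cdc42 and the adaptor gene Grb10, were not called: Cdc42 was at 79.5 FPKM in neural tube against 219 in pancreas, and Grb10 at 87.4 FPKM in neural tube against 169 in pancreas.

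Of 15 genes of ephrin-B reverse signalling 4 were called higher in neural tube and 0 higher in pancreas, with a median difference of 1.35. Reln, the secreted protein reelin, which binds ephrin-Bs, was at 12.2 FPKM in neural tube against 0.722 in pancreas. Its intracellular effector gene Dab1 was at 12.4 FPKM in neural tube against 2.01 in pancreas. Grip1, a PDZ scaffold that binds the ephrin-B tail, was at 11.0 FPKM in neural tube against 1.10 in pancreas. Arhgef7, an exchange factor for Rac, was at 52.3 FPKM in neural tube against 12.0 in pancreas, a difference of 2.03 that barely met the rule. The syntenin gene Sdcbp, whose product also binds that tail, was at 36.5 FPKM in neural tube against 101 in pancreas and was not called.

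Of 14 genes listed for the cleavage of Ephs or ephrins, 0 were called higher in neural tube and 1 higher in pancreas. The median difference was -0.56, and -0.92 over the 11 genes at 5 FPKM in a tissue. As deposited, 11 of the 14 had the higher value in pancreas and 3 in neural tube, the latter count ranging from 2 to 6 with rescaling. Psen2, a catalytic subunit of gamma-secretase, was at 2.38 FPKM in neural tube against 13.6 in pancreas. Psenen, another subunit, was at 42.6 FPKM in neural tube against 121 in pancreas. Aph1a was nearly level, at 47.0 FPKM in neural tube against 48.1 in pancreas.

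**Figure D4:**
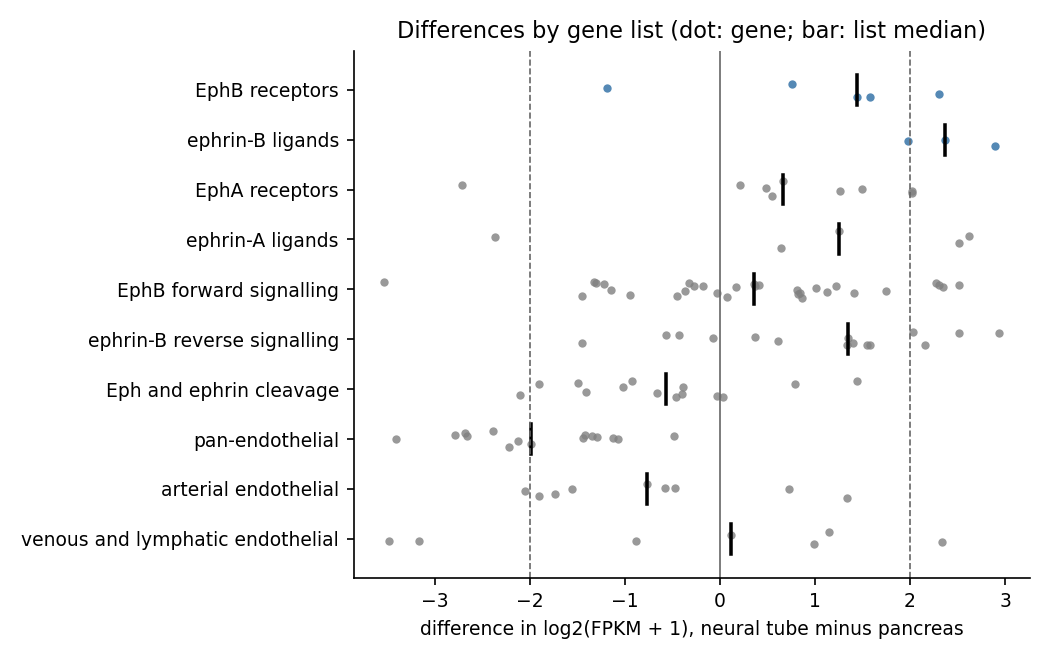
Difference in log2(FPKM + 1), neural tube minus pancreas (horizontal axis), for each gene (dot) of the lists named at left, with the list median as a bar, a solid line at 0 and dashed lines at a 4-times difference. The 3 ephrin-B ligands lie between 1.98 and 2.89, the EphB receptors between -1.19 and 2.31, and all 15 pan-endothelial genes lie below 0 as deposited (1, Cldn5, turns round with equal totals).

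Marker genes of other cell types differed between the sorted cells and the whole tissue, and in bulk samples fewer cells of a type and less RNA per cell cannot be told apart. All 14 measured pan-neuronal genes and 12 of 13 neural progenitor genes were called higher in neural tube, as were 10 of 12 dorsal inhibitory interneuron genes. In pancreas 13 of 14 acinar genes, 10 of 12 epithelial and duct genes, 5 of 11 endocrine genes, 9 of 15 mesenchyme and pericyte genes and 6 of 9 immune genes were called higher. The mesenchyme and pericyte list also held 1 gene called higher in neural tube, Twist1, at 15.8 FPKM in neural tube against 1.39 in pancreas. Erythroid genes were called both ways, 3 higher in neural tube and 4 higher in pancreas. Of all 10744 genes at 5 FPKM in a tissue, 10.3% were called higher in neural tube and 11.9% higher in pancreas. That level was reached by 13 of 14 acinar, 9 of 11 endocrine, 7 of 9 erythroid and 7 of 9 immune genes. All measured genes of the other lists above reached it. The labelled tissues thus carried their own markers, shown here by the highest genes of each list. The neuronal tubulin gene Tubb3 and Dpysl3 were at 869 and 299 FPKM in neural tube and at 8.51 and 13.0 in pancreas, and the progenitor genes Msi1 and Fabp7 were at 209 and 183 FPKM in neural tube and at 3.13 and 14.3 in pancreas. The interneuron transcription factor genes Pax2 and Tfap2b were at 112 and 92.4 FPKM in neural tube and at 0.0081 and 0.0415 in pancreas. These leading genes do not stand for every gene of their lists: Kirrel2, Pax6 and Ptf1a itself, singled out after their values were seen, were at 47.4, 15.52 and 22.5 FPKM in neural tube and at 18.9, 10.8 and 37.1 in pancreas. The chymotrypsinogen gene Ctrb1 and the amylase gene Amy2b were at 0.0688 and 0.00089 FPKM in neural tube and at 21063 and 9313 in pancreas, and the epithelial genes Spp1 and Krt18 at 0.203 and 2.04 FPKM in neural tube and at 398 and 289.7 in pancreas. The hormone genes Ins2 and Gcg were listed at 0 and at 0.354 FPKM in neural tube and were at 1369.9 and 712 in pancreas. Vim and Col3a1, of mesenchyme, were at 477 and 11.2 FPKM in neural tube and at 273 and 469 in pancreas, Vim being a gene that neural progenitors also express. Of the endocrine list, the somatostatin gene Sst and the transcription factor gene Neurod1, also singled out after their values were seen, went the other way, at 145 and 12.0 FPKM in neural tube and at 41.0 and 6.63 in pancreas. The globin genes Hba-a1 and Hbb-b1 were at 587 and 17.5 FPKM in neural tube and at 14315 and 1449 in pancreas. The globin genes Hba-x, Hbb-y and Hbb-bh1, singled out after their values were seen, were called the other way. They were at 481, 454 and 138 FPKM in neural tube and at 33.6, 104 and 2.03 in pancreas. The macrophage genes Lyz2 and C1qa were at 0.233 and 0.977 FPKM in neural tube and at 106 and 68.7 in pancreas. The part of these cell types in the members' levels was not tested.

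Because Ephb4 and Efnb2 are also vessel genes, the endothelial markers are given beside them. All 15 pan-endothelial markers had lower FPKM in neural tube, and none was listed at 0 in either sample. Of the 11 that reached 5 FPKM in a tissue, 7 were called higher in pancreas, against 11.9% of all genes at that level. The direction of 1 of the 15, Cldn5, turned round with rescaling to equal totals. They summed to 31.4 FPKM in neural tube, where single genes ranged from 0.239 to 8.32, and to 178 in pancreas, where they ranged from 2.04 to 39.5. Egfl7, a secreted endothelial protein gene, was at 8.32 FPKM in neural tube against 39.5 in pancreas, and Pecam1, the endothelial adhesion gene, at 1.39 FPKM in neural tube against 24.3 in pancreas. Ephb4 thus had its higher value in the sample with the higher endothelial markers, whose part in its level was not tested. The ratio of Ephb4 to the sum of the 15 markers was 0.341 in neural tube and 0.144 in pancreas. Its ratio to Pecam1 alone, the marker with the largest difference (-3.40), was 7.70 in neural tube and 1.06 in pancreas. Efnb2 had its higher value in the sample with the lower endothelial markers. The ratio of Efnb2 to the sum of the 15 markers was 0.912 in neural tube and 0.0267 in pancreas. Its ratio to Pecam1 alone was 20.6 in neural tube and 0.196 in pancreas.

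Of 9 arterial markers, 6 reached 5 FPKM in a tissue. Of these 6, 0 were called higher in neural tube and 1, the receptor gene Acvrl1, higher in pancreas. Over the 10744 genes at that level the shares were 10.3% and 11.9%. Acvrl1 was at 0.559 FPKM in neural tube against 5.47 in pancreas. The gap junction genes Gja4 and Gja5 and the Notch ligand gene Dll4 were at 0.909, 0.337 and 0.699 FPKM in neural tube and at 5.34, 2.94 and 5.33 in pancreas. Nrp1, Unc5b and Sox17 were at 15.0, 2.41 and 0.416 FPKM in neural tube and at 26.2, 3.72 and 1.11 in pancreas. Hey1 and Cxcr4, which neural cells also use, were at 6.36 and 16.9 FPKM in neural tube and at 3.45 and 6.09 in pancreas. Cxcr4 also stands in the reverse signalling list.

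Of 7 venous and lymphatic markers, 6 reached 5 FPKM in a tissue. Of these 6, 1 was called higher in neural tube and 2 higher in pancreas, against 10.3% and 11.9% of all genes at that level. Aplnr, an apelin receptor of venous endothelium, was at 1.36 FPKM in neural tube against 20.1 in pancreas. The lymphatic gene Lyve1 was at 0.156 FPKM in neural tube against 11.9 in pancreas. Pdpn, which neural progenitors also express, was at 37.6 FPKM in neural tube against 6.66 in pancreas. Nr2f2, Nrp2, Prox1 and Flt4 were at 35.2, 8.12, 12.8 and 0.781 FPKM in neural tube and at 17.3, 7.41, 5.22 and 2.28 in pancreas. In the sorted cells 3 of the 9 arterial and 4 of the 7 venous and lymphatic markers reached 5 FPKM, as did 2 of the 15 pan-endothelial markers, and which cells carry this RNA was not tested.

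Genes with nearly the same pair of values were found for the members with the largest differences, by Euclidean distance over the 2 values of log2(FPKM + 1). Nearest to Efnb3 were Sema4g, a semaphorin gene, Igf2bp1 and Wasf1, at distances of 0.03, 0.04 and 0.09. Nearest to Efnb2 were Zfp579, Notch3 and Fam125b, at distances of 0.01, 0.06 and 0.07. Over only 2 samples this says that the levels were alike and no more.

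**Figure D5:**
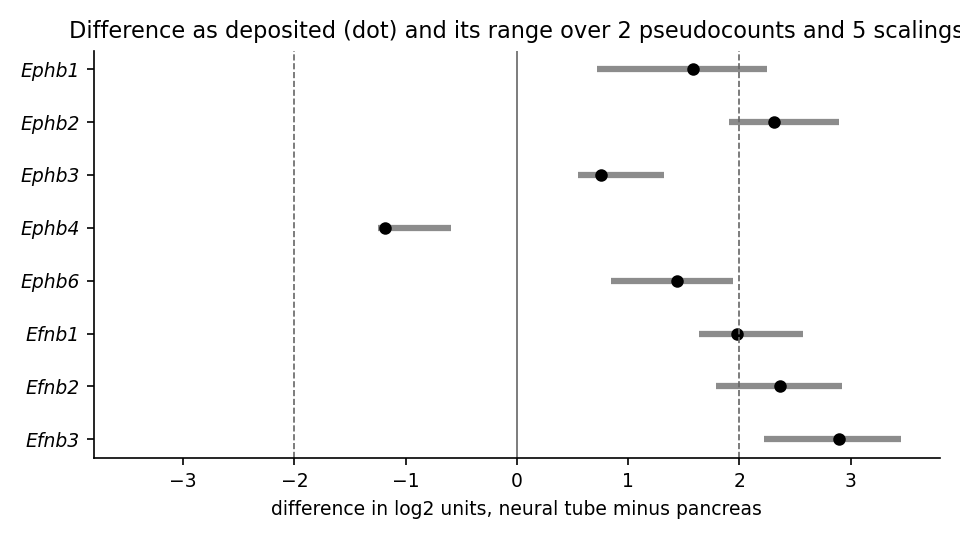
Difference of each member in log2 units (horizontal axis, neural tube minus pancreas) with the deposited scaling and a pseudocount of 1 FPKM (dot) and its range over 2 other pseudocounts and 5 rescalings (bar), with a solid line at 0 and dashed lines at a 4-times difference. No bar reaches 0, Efnb3 stays above 2 throughout from 2.22 to 3.45, and the bars of Ephb1, Ephb2, Efnb1 and Efnb2 reach both sides of 2.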

How the data were processed

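RNA was measured by sequencing in 2 of the 18 samples of the series. The remaining 16 (11 chromatin immunoprecipitation, 2 input and 3 open-chromatin samples) are not analysed here. The authors deposited FPKM, 1 value per gene and tissue, read as the authors' pooled value. Per the submitters' processing notes, CASAVA, TopHat, TopHat2 2.0.4 and Cuffdiff 2.0.2 were used with mm9, in an order not given in the sources used here. The gene annotation and filters are likewise not given there. Per the labels' protocols, RNA came from a column kit for sorted cells and from Trizol for pancreas, and both an Illumina mRNA-seq and a TruSeq preparation are named, so library chemistry may also differ.

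From these values the difference of log2(FPKM + 1), neural tube minus pancreas, and the rule of size were computed for all 23228 genes, with Python 3.11.15, numpy 2.4.6 and pandas 2.3.3. The calling was tested on simulated data, which gives no error rate for the calls made here. No test was run, since 1 value per group allows none. Alternatives were pseudocounts of 0.1 and 5 FPKM, folds of 2 and 8, no minimum or 10 FPKM, and rescaling to the median ratio, the upper quartile, a housekeeping list, equal totals, or equal totals without the 50 highest genes of each sample.

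Counts were not given. From the smallest repeated unit of length-corrected FPKM among 8045 single-transcript genes, a single fragment on 1 kb was worth about 0.0481 FPKM in neural tube against 0.0246 in pancreas. By that scale the lowest member value, Ephb1 in pancreas, rests on roughly 173 fragments. This is approximate, and no interval is given. Gene coordinates are from GENCODE M1 (NCBIM37), which held all 8 members.

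The members and the gene lists were chosen with earlier results of these data known. The naming rule took all members, then in each signalling or cleavage list the genes past the rule of size (with more than 4, the 2 furthest each way) and the 2 highest means. It took the called or highest A-class genes and every arterial and venous marker. For the other marker lists it named the 2 highest genes (housekeeping genes served scaling only), and for the 2 members that differed most it named the 3 nearest genes.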

Additional observations from a re-analysis of the deposited data

How the results depend on the processing

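No paired analysis was possible because each tissue has 1 value per gene. As deposited, 3 members were called higher in neural tube and 0 in pancreas. The count in neural tube was 1 with a pseudocount of 5 FPKM (Efnb3), 5 at a fold of 2 (with 1, Ephb4, in pancreas) and 0 at a fold of 8, while the other 8 alternatives gave 3 or 4. The fourth was Efnb1, with a pseudocount of 0.1 FPKM and under rescaling to housekeeping genes, to equal totals and to equal totals without the 50 highest genes. Those 3 rescalings shifted the median over genes detected at 1 FPKM in each tissue by 0.37, 0.55 and 0.31, and all members shifted the same way. Of all calls, 60.6%, 66.8% and 58.8% were toward neural tube under them, against 46.4% as deposited.

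Over EphA, ephrin-A, signalling and cleavage genes the rule gave 10 calls toward neural tube and 4 toward pancreas. They were 0 and 1 with a pseudocount of 5 FPKM, and 15 and 2 with equal totals. At a fold of 2 they were 22 and 14, and at a fold of 8 they were 0 and 1. Over all genes the main counts of 1106 in neural tube and 1278 in pancreas became 512 and 600 with a pseudocount of 5 FPKM. They became 2494 and 2690 at a fold of 2, 546 and 653 at a fold of 8, and 1772 and 882 with equal totals. A larger pseudocount or fold makes fewer calls by construction. No member's difference turned round under the 5 rescalings, whose log2 shifts of -0.066 to 0.63 were smaller than any member's difference. The other alternatives cannot turn a difference round by construction. None of the alternatives is thus a check of direction. The main limit is that neither sample has a replicate value, so the spread of any difference is unknown.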
